A study of Mus musculus with 10 samples.

Results

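The genes of the mitochondrial respiratory chain were examined in single phagocytes, microglia and macrophages, isolated from the retina or the optic nerve of mice. Members were taken by symbol: genes beginning Nduf, Uqcr, Cox4i, Cox5, Cox6, Cox7, Cox8 or Atp5, the genes Sdha, Sdhb, Sdhc, Sdhd and Cycs, and the protein genes of the mitochondrial (mt) genome, without entries marked as pseudogenes (-ps). This gave 112 genes, 99 encoded in the nucleus and 13 in the mt genome, of which 104 had at least 1 unique molecular identifier (UMI, 1 captured mRNA molecule), among 16603 genes with a UMI in the series. The other 8 members were at 0 in all libraries. Cells came from wildtype mice of strain 129S1/SvlmJ, of both sexes and 10 weeks old. In the injured groups the optic nerve, which carries the axons of the retina to the brain, was crushed at 8 weeks and tissue was taken 2 weeks later, and the uninjured groups had no treatment. The series lists 10 samples in 4 groups, and the deposited table separates 8 libraries, 2 per group: uninjured retina 5 and 6, injured retina as a pool of samples 1 and 2 and a pool of samples 3 and 4, uninjured optic nerve 2 and 4, and injured optic nerve 1 and 3. The labels do not say how many animals gave a library, and the samples inside a pool cannot be separated, so every test below measures the spread between libraries.

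The respiratory chain of the inner mitochondrial membrane passes electrons from NADH (complex I) and succinate (complex II) through complex III and cytochrome c to oxygen at complex IV, and complex V, the ATP synthase, uses the resulting proton gradient to make ATP. Most subunits are nuclear genes whose proteins are imported, while a small core of complexes I, III, IV and V is transcribed inside the organelle as long polycistronic RNAs that are cut into single messages. Microglia, the resident phagocytes of retina and nerve, change the balance of respiration and glycolysis when they are activated. Nuclear respiratory factor 1 (NRF1), GABPA (an ETS-family factor) and YY1 are transcription factors known to bind promoters of nuclear respiratory chain genes.

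Motifs of these factors were counted in the promoters of the nuclear members. RefSeq windows (build GRCm38.p6, 250 bases before to 50 bases after the start) were matched for 78 of the 99 nuclear members. All motifs were searched on both strands. The palindromic NRF1 core GCGCATGCGC was in 7 of the 78 (8.97%), against 1.07% of all 27025 genes with a window. The ETS core CCGGAAG was in 19 members (24.4%, against 9.93%), and the YY1 core AAGATGG in 12 (15.4%, against 7.28%). TATAAA was in 8 members (10.3%, against 15.7%). A match describes the letters in the window and is not evidence of binding. The first 3 stretches below show the NRF1 core, in capitals, with 20 bases on each side, in Cox6a1 (chr5:115349091-115349140, minus strand), Ndufa11 (chr17:56717682-56717731, plus strand) and the assembly factor Ndufaf4 (chr4:24897950-24897999, plus strand). The last 2 are the 100 bases before the start of Uqcrh (chr4:116075071-116075170, minus strand), higher in injured retina below, with its ETS core in capitals on the opposite strand, and of Ndufa3 (chr7:3617273-3617372, plus strand), lower in injured retina, in which none of the 4 motifs was found. The last base of the Uqcrh stretch is the first of the gene in GENCODE M21. None of the 4 motifs was found either in the same 100 bases of Cox7a2l and Ndufa6, higher in injured retina, or of Ndufa4, lower. By GENCODE M21 the stretches of Ndufa6 and Ndufa4 reach into the gene. That of Cox7a2l (chr17:83514334-83514433) lies wholly inside the gene (chr17:83501918-83517330), so the bases before its GENCODE start were not searched. Cox4i1, also higher, had no matched window.
Cox6a1: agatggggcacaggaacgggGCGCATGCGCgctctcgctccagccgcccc
Ndufa11: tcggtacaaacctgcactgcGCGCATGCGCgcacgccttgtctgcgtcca
Ndufaf4: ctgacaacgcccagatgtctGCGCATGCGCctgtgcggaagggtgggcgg
Uqcrh: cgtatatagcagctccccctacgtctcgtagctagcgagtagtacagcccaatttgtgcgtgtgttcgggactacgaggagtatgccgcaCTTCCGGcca
Ndufa3: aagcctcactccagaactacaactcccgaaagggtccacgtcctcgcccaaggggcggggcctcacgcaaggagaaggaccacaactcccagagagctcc

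Some properties of the libraries bear on the values that follow. The 1168 cells were spread unevenly, from 12 in uninjured retina 6 to 682 in injured optic nerve 3, and library totals ran from 56838 to 5424786 UMIs. All 10 microglia markers were detected, at a summed 16842 to 35997 UMIs per 1000000 of the library total (CPM), whereas oligodendrocyte markers reached 11474 CPM in uninjured optic nerve 2 and T and NK cell markers 489 CPM in the injured pool 3 and 4, so the libraries were not of microglia and macrophages alone. T-like cells (at least 2 of 11 markers) made up 19 and 22 cells of the injured retina pools and 0 of the uninjured retina. In all, 2 barcodes occurred in 2 cells each. The RNA of cytosolic ribosomal proteins was 11.3% and 8.72% of UMIs in uninjured and 22.1% and 21.8% in injured retina, and its part in the retina results was not tested. The last 24183 entries of the table were all 0 in both uninjured retina libraries, whereas the other libraries had 0.313% to 0.467% of theirs. Its gene annotation or merging therefore differed, and in every comparison with uninjured retina that difference and the biological contrast cannot be told apart.

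Summed over all cells of a library, nuclear-encoded members took up 1.16% to 1.57% of UMIs, while the mt-encoded share differed more between the optic nerve libraries. Over the 88 nuclear members with a UMI in both tissues, the share was 1.17% and 1.38% in uninjured retina 5 and 6, 1.21% and 1.16% in the injured pools, 1.36% and 1.30% in uninjured optic nerve 2 and 4, and 1.16% and 1.57% in injured optic nerve 1 and 3. The 13 mt-encoded genes gave 2.90% and 3.14%, 2.82% and 2.85%, 7.29% and 3.75%, and 5.20% and 2.87% in the same order. The 4 retina libraries lay within a narrow band on both measures, and in optic nerve the injured and uninjured ranges of the mt-encoded share overlapped. By cell the nuclear share varied more. The median cell held 0.98% and 1.06% nuclear-encoded UMIs in uninjured retina and 1.20% and 1.08% in the injured pools. In optic nerve these medians were 1.09% and 0.756% without and 1.26% and 1.56% with injury, and did not overlap.

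The ratio of mt-encoded to nuclear UMIs within a library does not depend on how the library is scaled. Its log2 was 1.31 and 1.18 in uninjured retina and 1.22 and 1.29 in injured retina, a difference of group means of 0.011 beside a pooled SD of 0.075. In optic nerve it was 2.43 and 1.53 without injury and 2.17 and 0.88 with injury, a difference of -0.46 beside a pooled SD of 0.784. Both differences were smaller than the spread between libraries. With cells bearing T cell, oligodendrocyte or endothelial markers left out, the optic nerve ratios were 2.27 and 2.13 without and 1.96 and 0.84 with injury. These no longer overlapped, and the difference was -0.81, whereas in retina it was 0.082 and the groups overlapped. The mt-encoded share of the optic nerve cells kept still overlapped, at 6.59% and 4.07% without and 4.71% and 2.81% with injury. Their nuclear share was 1.36% and 0.927% without and 1.21% and 1.57% with injury. For uninjured optic nerve 4 that share was 1.30% with all cells and 0.927% over the 49859 UMIs kept. With all cells, the optic nerve difference became 0.19 without injured optic nerve 3 and -1.10 without injured optic nerve 1, and -0.90 and -0.012 without uninjured optic nerve 4 and 2, so single libraries decide its size and its sign.

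**Figure D1:**
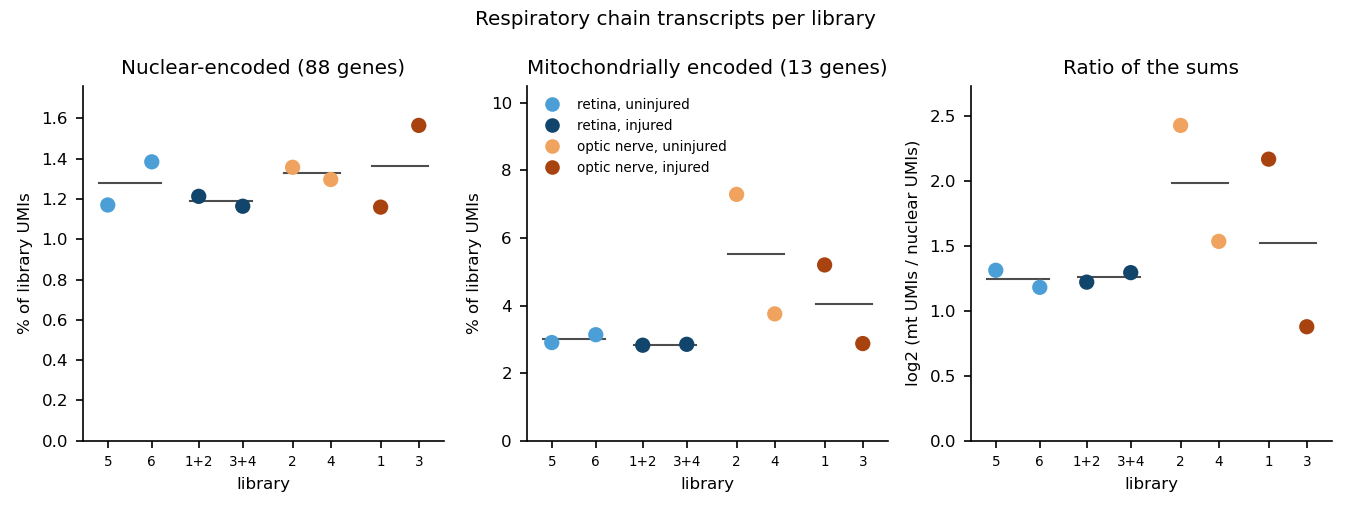
Share of each library's UMIs in the 88 nuclear and the 13 mt-encoded members, and the log2 ratio of the 2 sums. Points are libraries and lines are group means (n = 2). Retina libraries sit together at 2.82% to 3.14% mt-encoded UMIs, while optic nerve libraries run from 2.87% to 7.29%.

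Counted at each cell's own depth, cells with very little mt-encoded RNA were common in 3 of the 4 optic nerve libraries. The median cell held 1.88% and 2.77% mt-encoded UMIs in uninjured and 2.58% and 1.85% in injured retina, 7.83% and 4.10% in uninjured optic nerve, and 2.91% and 1.91% in injured optic nerve. The highest cell of the series stood at 19.7%. Cells under 1% made up 30.8% (45 of 146, exact 95% interval 23.5% to 39.0%) of injured optic nerve 1 and 36.4% (248 of 682, exact 95% interval 32.7% to 40.1%) of injured optic nerve 3. In uninjured optic nerve they were 1.94% (2 of 103, exact 95% interval 0.236% to 6.84%) of library 2 and 21.4% (6 of 28, exact 95% interval 8.30% to 41.0%) of library 4, and in the 4 retina libraries 2.75% to 16.7%. These intervals cover counting error only, and the cut falls inside a continuous range: 16 cells of injured optic nerve 3 lay between 0.8% and 1% and 18 between 1% and 1.2%.

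Depth differed between the cells under 1% and the rest, though not in the same direction in every library. With cells of at least 1000 UMIs thinned to 1000, the expected share under 1% was 18.1% in injured optic nerve 1 (66 shallower cells left out), 30.4% in injured optic nerve 3 (182 left out), and 1.88% and 23.0% in uninjured optic nerve 2 (19 left out) and 4 (9 left out). In uninjured retina 5 and 6 it was 15.9% and 18.6%, and in the injured pools 1 and 2 and 3 and 4 it was 3.96% and 6.14%. On that scale the ranges of injured and uninjured optic nerve overlapped, and injured optic nerve 1 lay between the uninjured retina libraries. In injured optic nerve 3 the cells under 1% had a median of 1241 UMIs and 564 genes, against 4938 UMIs and 1668 genes in the rest. In uninjured optic nerve 4 the 6 such cells were the deeper ones (1909 against 1518 UMIs). Nuclear-encoded members of the cells under 1% held 1.99% of UMIs against 1.53% in the rest of injured optic nerve 3, and 1.52% against 1.09% in injured optic nerve 1, whereas in the other 6 libraries, with 2 to 6 such cells each, they were below the rest (1.05% against 1.34% in uninjured optic nerve 4). Malat1, a nuclear-retained RNA, was 0.174% against 1.19% of UMIs in injured optic nerve 3 and 1.28% against 2.72% in injured optic nerve 1, but it was higher in the cells under 1% of both uninjured optic nerve libraries (7.49% against 3.48% in library 2). Microglia markers were 2.94% against 2.72% and 2.32% against 2.11% in injured optic nerve 3 and 1. The part of depth and RNA quality in the share of such cells was not tested.

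**Figure D2:**
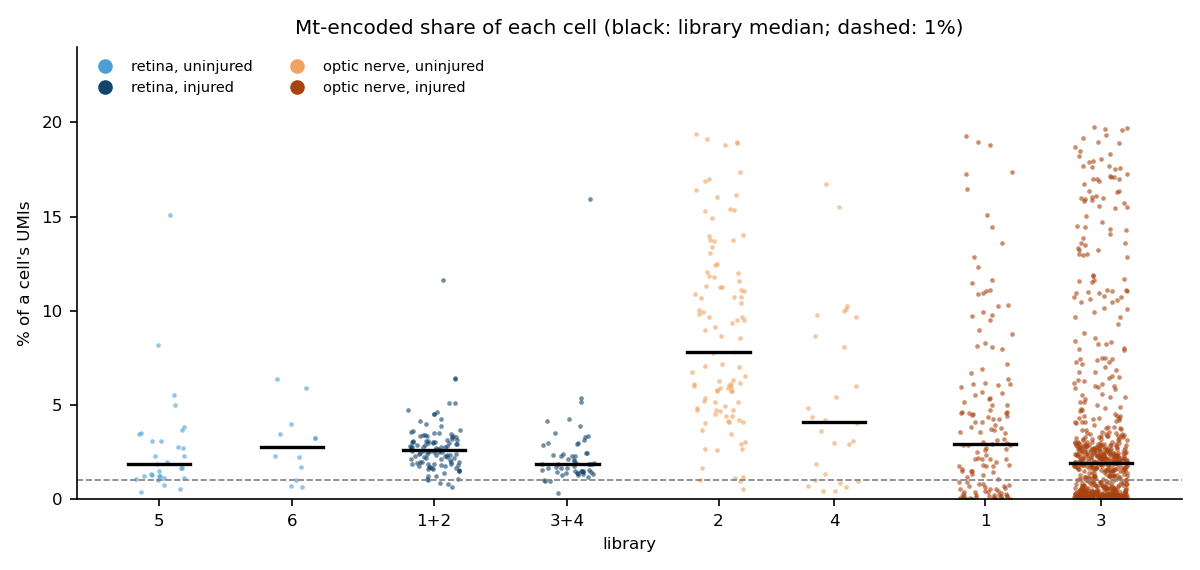
Mt-encoded UMIs as a percentage of each cell's UMIs, by library. Each point is a cell, black lines are library medians and the dashed line marks 1%. Cells under the dashed line are 30.8% and 36.4% of injured optic nerve 1 and 3 and 1.94% of uninjured optic nerve 2, but 21.4% of uninjured optic nerve 4.

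The mt-encoded share was also taken within marker-defined cell classes. T-like cells of the injured retina pools held 1.64% and 1.69% mt-encoded UMIs, against 2.91% and 3.04% in the remaining cells of the same pools, and their log2 ratio to nuclear members was 0.19 and 0.43 against 1.28 and 1.40. Nuclear members made up 1.44% and 1.25% of UMIs in T-like and 1.20% and 1.15% in the remaining cells. Cells with at least 2% of UMIs in oligodendrocyte markers, all in optic nerve, were at 11.4% and 7.53% mt-encoded UMIs in uninjured libraries 2 and 4 and 9.10% and 8.02% in injured libraries 1 and 3, over their summed UMIs. The median such cell held 11.8%, 9.88%, 5.28% and 2.56% in the same order. The remaining cells there were at 6.61%, 4.17%, 4.69% and 2.82% over summed UMIs, with medians of 7.42%, 4.03%, 2.63% and 1.83%. Border macrophage-like cells (at least 3 of 7 markers) numbered 36, 6 and 19 in uninjured optic nerve 2 and injured optic nerve 1 and 3. Over summed UMIs they were close to the remaining cells, at 6.58%, 4.84% and 2.56% in the same order. Their medians were 6.29%, 4.92% and 2.46%, below the remaining cells in uninjured optic nerve 2 and above them in both injured libraries. No p is given for these differences, because cells of a library are not replicates.

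The next comparison sets respiratory chain RNA of injured retina against that of uninjured retina. Levels of single genes are given below as CPM scaled by TMM factors over the 8 libraries (0.859 to 1.15). edgeR's quasi-likelihood test on UMIs summed per library called 11 of the 87 members tested (12.6%) at a Benjamini-Hochberg adjusted p of 0.05 over all 3312 genes tested, of which 19.7% were called. By genome, 8.11% of the 74 nuclear members and 38.5% of the 13 mt-encoded genes were called. Calls went both ways: 6 members rose and 5 fell, against 9.99% of all genes called higher and 9.72% called lower. Of the 74 nuclear members 4 rose (Cox7a2l, Cox4i1, Ndufa6 and Uqcrh) and 2 fell (Ndufa3 and Ndufa4). Of the 13 mt-encoded genes 2 rose (mt-Nd1 and mt-Nd3) and 3 fell (mt-Nd4l, mt-Atp8 and mt-Cytb). The median log2 change was -0.21 over the nuclear members and -0.13 over the mt-encoded genes, beside 0.069 over all genes tested. The number called was 5, 10, 3 and 5 without uninjured retina 5, uninjured retina 6, injured pool 1 and 2 and injured pool 3 and 4 in turn.

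Cox7a2l (ENSMUSG00000024248, chr17:83501918-83517330 in GRCm38, minus strand), which encodes a complex IV-related protein that helps join complexes III and IV into supercomplexes, had the largest change of any member in retina. It stood at 96.7 and 123 CPM in uninjured retina 5 and 6, and at 440.2 and 414 CPM in injured pools 1 and 2 and 3 and 4. All injured retina values were above all uninjured ones, and those of the 4 optic nerve libraries (238 to 265 CPM) lay in between. The fitted change was 1.97 ± 0.32 (log2, SE, adjusted p = 0.00168), or 3.91-fold higher. Neither it nor the other nuclear members called has a near-identical copy in the annotation (at least 95% identity over at least 200 of the last 400 bases), whereas 26 of the 104 members do. Without the T-like cells and those with oligodendrocyte or endothelial markers, and per library total without TMM factors, the values were 94.2, 141, 439 and 431 CPM in the same order. It was called under each of the 12 alternatives run for retina, with changes of 0.77 (on the ln scale) to 2.16. The uninjured values rest on 13 and 8 UMIs. Its relative Cox7a2, a complex IV subunit, was at 320.0 and 184 CPM in uninjured retina 5 and 6, and at 179.9 and 135 CPM in injured pools 1 and 2 and 3 and 4, a change of -0.76 ± 0.32 (log2, SE, adjusted p = 0.114) that did not pass the test.

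Cox4i1 (ENSMUSG00000031818, chr8:120668222-120674207, plus strand), the regulatory subunit 4 of complex IV, stood at 409 and 245 CPM in uninjured retina 5 and 6, and at 736 and 781 CPM in injured pools 1 and 2 and 3 and 4. The groups did not overlap, and the change was 1.12 ± 0.29 (log2, SE, adjusted p = 0.0226). A readthrough gene on the same strand, Gm20388, overlaps it, and had 0 and 0 UMIs in uninjured retina against 95 and 119 in the injured pools. It also had 0 UMIs in every optic nerve library, injured or not, so this entry held UMIs in the injured retina pools only. The part of this, or of a difference in counting, in the Cox4i1 call was not tested. Ndufa4 (ENSMUSG00000029632, chr6:11900292-11907497, minus strand), named for complex I but known as a complex IV subunit, moved the other way. It stood at 238 and 459.7 CPM in uninjured retina 5 and 6, and at 156 and 157 CPM in injured pools 1 and 2 and 3 and 4. The injured pools were alike and below both uninjured libraries, which were far apart, and the change was -1.12 ± 0.34 (log2, SE, adjusted p = 0.0394). The call was lost without each of uninjured retina 6, pool 1 and 2 and pool 3 and 4.

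Ndufa6 (ENSMUSG00000022450, chr15:82350140-82354322, minus strand), an accessory subunit of complex I, stood at 134 and 107 CPM in uninjured retina 5 and 6, and at 242 and 312 CPM in injured pools 1 and 2 and 3 and 4, a change of 1.10 ± 0.33 (log2, SE, adjusted p = 0.0397). Ndufa3 (ENSMUSG00000035674, chr7:3617373-3620327, plus strand), another accessory subunit of complex I, stood at 179 and 138 CPM in uninjured retina 5 and 6, and at 64.5 and 67.5 CPM in injured pools 1 and 2 and 3 and 4, a change of -1.35 ± 0.37 (log2, SE, adjusted p = 0.0275). Uqcrh (ENSMUSG00000063882, chr4:116066965-116075071, minus strand), the hinge subunit of complex III, stood at 313 and 291 CPM in uninjured retina 5 and 6, and at 533 and 578 CPM in injured pools 1 and 2 and 3 and 4, a change of 0.83 ± 0.27 (log2, SE, adjusted p = 0.0485). In each of these genes the groups did not overlap, and the 3 rested on few UMIs in uninjured retina 6 (7, 9 and 19). Uqcrh lost its call when any 1 of the 4 libraries was left out (adjusted p = 0.0705, 0.0809, 0.131 and 0.142 in edgeR without uninjured 5, uninjured 6, pool 1 and 2 and pool 3 and 4). Ndufa6 kept it only without pool 1 and 2 (adjusted p = 0.0299), and Ndufa3 only without uninjured retina 6 (adjusted p = 0.0217).

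**Figure D3:**
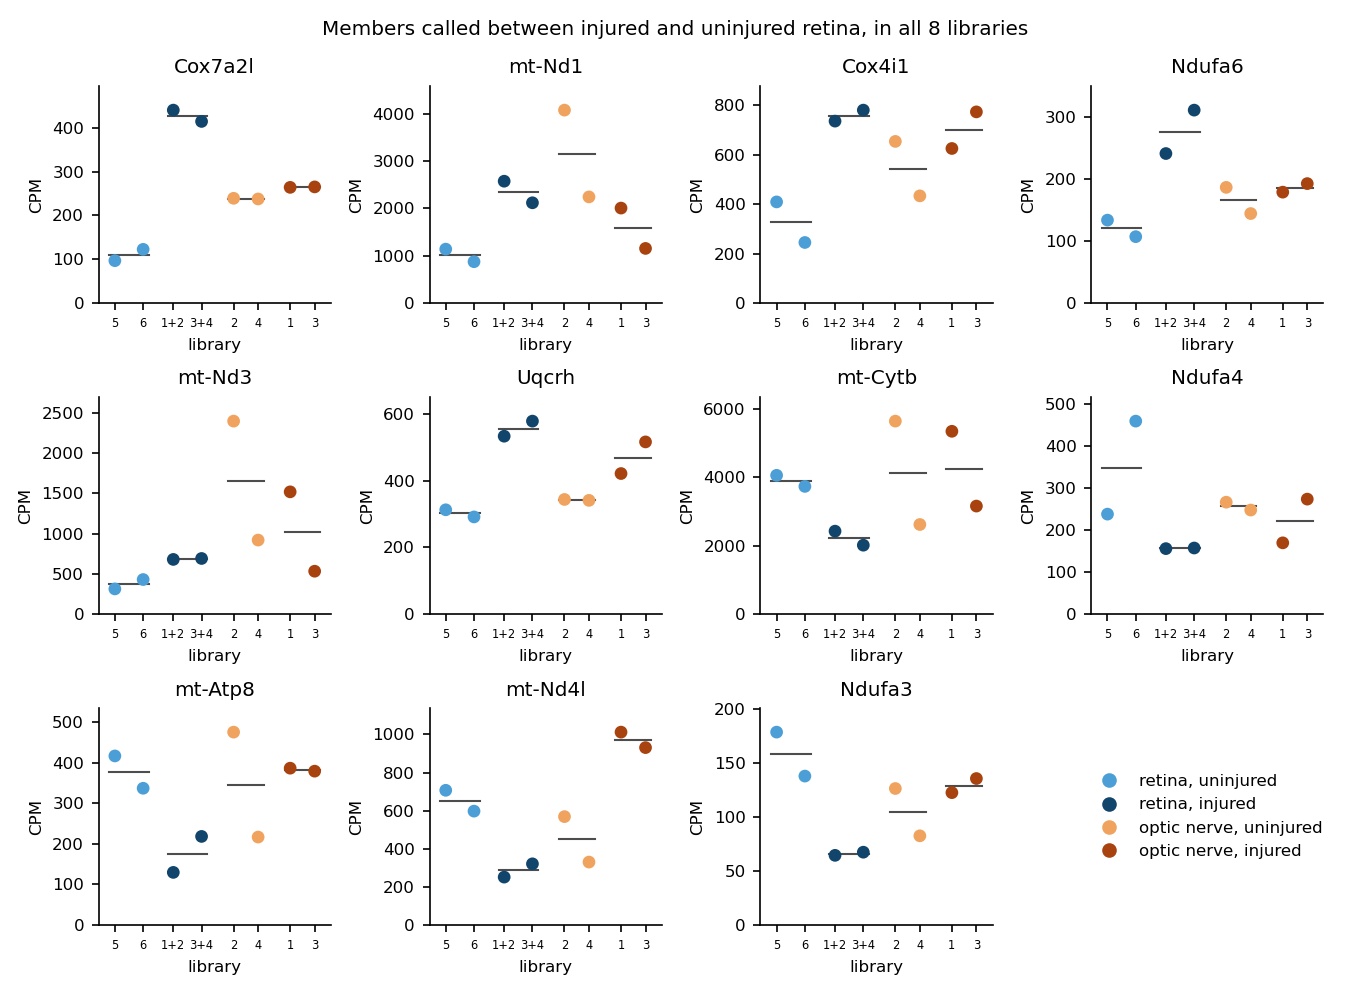
TMM-scaled CPM of the 11 members called between injured and uninjured retina, in all 8 libraries (lines: group means, n = 2). The optic nerve libraries are shown for comparison and were not part of this test. Cox7a2l reads 96.7 and 123 CPM in uninjured and 440.2 and 414 CPM in injured retina.

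Among the mt-encoded genes, mt-Nd1, a core subunit of complex I (chrM:2751-3707), stood at 1139 and 873 CPM in uninjured retina 5 and 6, and at 2573 and 2117 CPM in injured pools 1 and 2 and 3 and 4. The groups did not overlap, and mt-Nd1 rose by 1.17 ± 0.28 (log2, SE, adjusted p = 0.0146). The complex I subunit mt-Nd3 stood at 313 and 429 CPM in uninjured retina 5 and 6, and at 679 and 691 CPM in injured pools 1 and 2 and 3 and 4 and rose by 0.87 ± 0.28 (log2, SE, adjusted p = 0.04955), close to the threshold. mt-Nd4l, a further complex I subunit whose message is joined to mt-Nd4 in the mature transcript, stood at 707 and 598 CPM in uninjured retina 5 and 6, and at 252 and 321 CPM in injured pools 1 and 2 and 3 and 4. It was lower in both injured pools than in both uninjured libraries, with a change of -1.25 ± 0.27 (log2, SE, adjusted p = 0.00872), while its neighbour mt-Nd4 stood at 2091 and 1854 CPM in uninjured retina 5 and 6, and at 1958 and 1924 CPM in injured pools 1 and 2 and 3 and 4 and gave -0.069 ± 0.26 (log2, SE, adjusted p = 0.882).

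mt-Atp8, a complex V subunit whose reading frame overlaps that of mt-Atp6, stood at 417 and 337 CPM in uninjured retina 5 and 6, and at 129.8 and 218 CPM in injured pools 1 and 2 and 3 and 4, a change of -1.23 ± 0.32 (log2, SE, adjusted p = 0.0233). Cytochrome b, mt-Cytb, the mt-encoded subunit of complex III, stood at 4063 and 3739 CPM in uninjured retina 5 and 6, and at 2428 and 2017 CPM in injured pools 1 and 2 and 3 and 4, a change of -0.86 ± 0.27 (log2, SE, adjusted p = 0.0458). For both genes the injured values lay below the uninjured ones without overlap. mt-Co3, a core subunit of complex IV, stood at 2969 and 2942 CPM in uninjured retina 5 and 6, and at 5439 and 5368 CPM in injured pools 1 and 2 and 3 and 4, without overlap, and its change of 0.83 ± 0.27 (log2, SE, adjusted p = 0.0525) missed the threshold in edgeR, whereas DESeq2 called it (adjusted p = 0.00838). The remaining mt-encoded genes, mt-Nd2, mt-Nd5, mt-Nd6, mt-Co1, mt-Co2 and mt-Atp6, gave changes of -0.48 to 0.40, none of them called. mt-Nd1 lost its call without pool 1 and 2 (adjusted p = 0.145 in edgeR), mt-Nd4l without uninjured retina 5 (0.0582) or pool 1 and 2 (0.184), and mt-Atp8 without the same libraries (0.169 and 0.292). mt-Nd3 and mt-Cytb kept theirs only without uninjured retina 6 (adjusted p = 0.0092 and 0.00281).

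The mt-encoded genes come from shared long transcripts, so their make-up was compared within libraries, where scaling drops out. mt-Co3 follows mt-Atp6 directly on the genome, and had 0.399 and 0.445 UMIs per mt-Atp6 UMI in uninjured retina, 1.05 and 1.03 in injured retina, 0.941 and 0.941 in uninjured optic nerve, and 0.895 and 0.748 in injured optic nerve. Uninjured retina stood below all 6 other libraries. The same 2 libraries were apart for mt-Cytb, at 13.2% and 13.7% of mt-encoded UMIs against 7.09% to 9.98% in the other 6, and for mt-Atp6, at 24.1% and 24.2% against 17.8% to 21.3%. mt-Atp6 shares bases with mt-Atp8 and mt-Co3, and mt-Nd4l with mt-Nd4, so how a read is assigned there depends on the annotation and counting used. Whether that set the make-up in uninjured retina, the libraries with the different gene entries, was not tested.

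A second pattern did not set uninjured retina apart. mt-Nd4l had 0.338 and 0.322 UMIs per mt-Nd4 UMI in uninjured retina and 0.288 and 0.272 in injured optic nerve, against 0.129 and 0.167 in injured retina and 0.146 and 0.221 in uninjured optic nerve. The first 4 values were all above the last 4. mt-Nd6, the one protein gene on the opposite mt strand, overlaps mt-Nd5, and whether the counting used strand is not given in the sources used here. It held 0.316% and 0.325% of mt-encoded UMIs in injured optic nerve and 0.0727% to 0.224% in the other 6 libraries. Injured optic nerve 3 differed from its partner library 1 in mt-Nd4 (10.2% against 6.55%), mt-Co1 (15.1% against 9.94%) and mt-Co3 (13.8% against 19.0%).

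**Figure D4:**
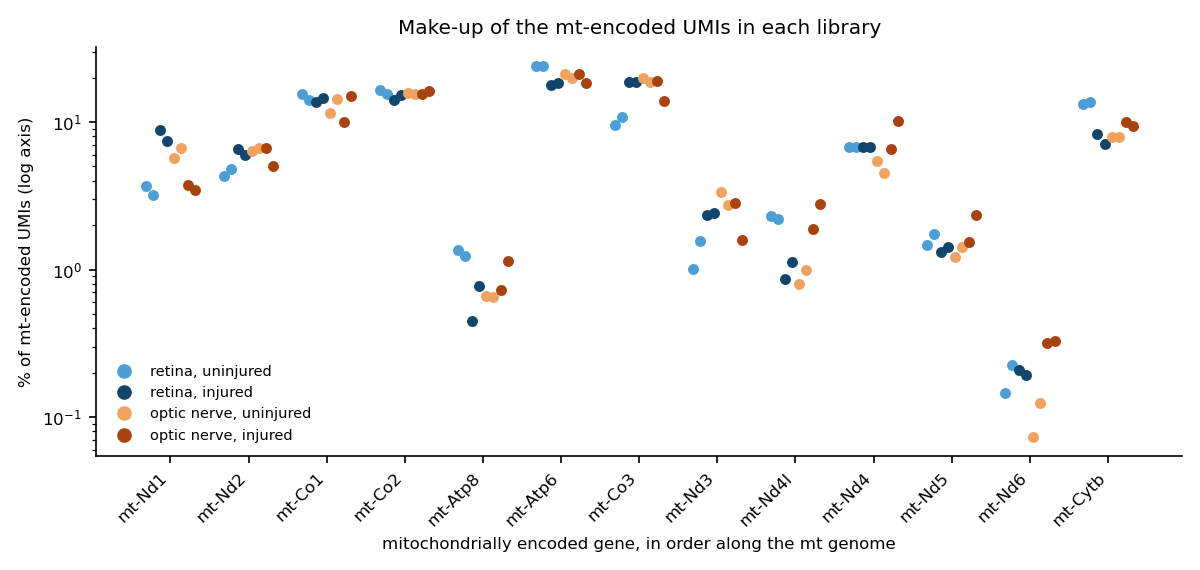
Share of each mt-encoded gene in the mt-encoded UMIs of a library, on a log axis, with 1 point per library. Uninjured retina is high for mt-Cytb (13.2% and 13.7%) and low for mt-Co3 (9.63% and 10.8%).

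In optic nerve, limma on log2(CPM + 10) over all 8 libraries called none of the 91 members tested after injury (0 called, beside 0.327% of the 5513 genes tested, 0.236% higher and 0.0907% lower), and 5 had an unadjusted p below 0.05. edgeR and DESeq2 on the same libraries also called 0 members. The median log2 change was 0.16 over the 78 nuclear members, -0.18 over the 13 mt-encoded genes and 0.015 over all genes tested. With library totals in place of TMM scaling, the median of all genes tested moved to -0.17 and those of nuclear and mt-encoded members to -0.048 and -0.41. Relative to all genes, mt-encoded members thus stood lower than nuclear ones under both scalings. Without injured optic nerve 3, however, the medians were -0.068 and 0.20, and without uninjured optic nerve 2 they were 0.37 and 0.52.

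mt-Nd6 had the smallest p among the mt-encoded genes. It stood at 52.2 and 41.3 CPM in uninjured optic nerve 2 and 4, and at 169.7 and 109 CPM in injured optic nerve 1 and 3, with both injured values above both uninjured ones, a change of 1.37 ± 0.39 (log2, SE, adjusted p = 0.21) in limma. mt-Nd4l stood at 569 and 330.5 CPM in uninjured optic nerve 2 and 4, and at 1012 and 931 CPM in injured optic nerve 1 and 3, again without overlap, a change of 1.14 ± 0.34 (log2, SE, adjusted p = 0.229). mt-Nd1 stood at 4073 and 2241 CPM in uninjured optic nerve 2 and 4, and at 2005 and 1154 CPM in injured optic nerve 1 and 3, with the injured values below the uninjured ones, a change of -0.99 ± 0.39 (log2, SE, adjusted p = 0.41). The other two of the 5 were nuclear and were named after their values were seen: Ndufs3, a core subunit of complex I, with 1.39 ± 0.54 (log2, SE, adjusted p = 0.406), and Atp5g2, a c-ring gene of complex V, with 0.73 ± 0.32 (log2, SE, adjusted p = 0.484). None of the 5 passed the test over all genes.

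The nuclear members called in retina by edgeR were also not called in optic nerve, where limma was the main test. Cox7a2l stood at 239 and 238 CPM in uninjured optic nerve 2 and 4, and at 264 and 265 CPM in injured optic nerve 1 and 3, so that both groups lay close together (238 to 265 CPM), a change of 0.14 ± 0.31 (log2, SE, adjusted p = 0.938). Cox4i1 stood at 654 and 434 CPM in uninjured optic nerve 2 and 4, and at 625 and 774 CPM in injured optic nerve 1 and 3, with overlapping groups.

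When the mean ln value per cell was used in place of summed UMIs, limma called 5 mt-encoded genes lower in injured optic nerve: mt-Co1, mt-Atp6, mt-Nd1, mt-Co3 and mt-Co2 (ln differences of -1.26, -1.29, -1.66, -1.40 and -1.18, adjusted p = 0.011, 0.0119, 0.0142, 0.0167 and 0.0418). That measure gives each cell the same weight, and so counts the many shallow cells with few mt-encoded UMIs as fully as the deep ones. It also moves with the UMI depth of the cells. The median cell had 2093 and 1518.5 UMIs in uninjured optic nerve 2 and 4, and 1159 and 2176.5 in injured optic nerve 1 and 3. The part of depth in these calls was not tested. The mean over cells of the log2 ratio of mt-encoded to nuclear UMIs, with 0.5 added to each count, was 2.84 and 2.13 in uninjured and 0.80 and 0.094 in injured optic nerve, without overlap, a difference of -2.04 against -0.46 from summed UMIs.

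**Figure D5:**
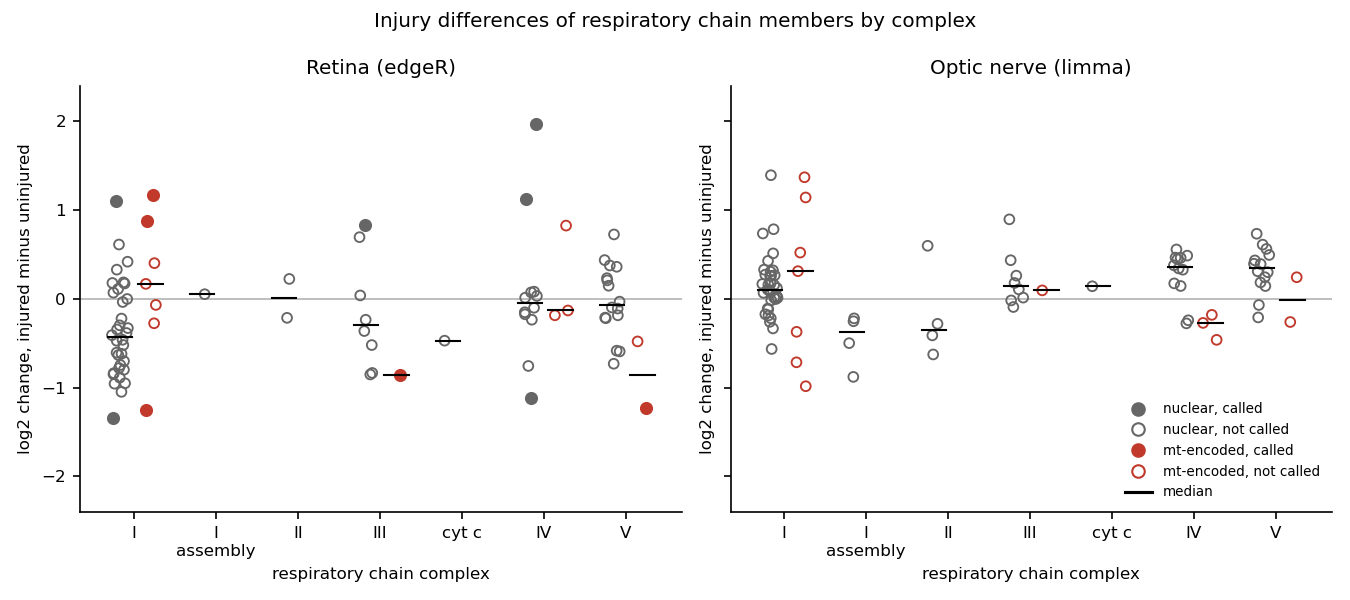
Log2 change with injury of each member tested, by complex, in retina (edgeR, left) and optic nerve (limma on log2(CPM + 10), right). Filled points passed an adjusted p of 0.05 and black bars are medians. In retina 11 members are filled, on both sides of 0, and in optic nerve 0, where the tests called 19.7% and 0.327% of all genes tested. With edgeR on 8 libraries for both tissues, 1 and 0 of 91 members were called.

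Whether the injury difference itself differed between tissues was tested as an interaction in the same limma fit. It called 1 of 91 members (1.1%), mt-Nd4l, beside 1.27% of the 5513 genes tested (0.508% higher and 0.762% lower). Injury went with lower mt-Nd4l in retina and higher mt-Nd4l in optic nerve, and the difference of the differences was 2.31 ± 0.48 (log2, SE, adjusted p = 0.0437). DESeq2 called it too (2.26 ± 0.62, adjusted p = 0.0141), and edgeR on 8 libraries missed the threshold (2.28 ± 0.53, adjusted p = 0.0531). The call held without uninjured optic nerve 2 and was lost without each of the other 7 libraries, with 0.51 to 2.74 over all alternatives. mt-Nd1 gave the opposite sign, at -2.20 ± 0.54 (log2, SE, adjusted p = 0.074) in limma, and was called by DESeq2 (-2.24 ± 0.64, adjusted p = 0.022). Cox7a2l gave -1.73 ± 0.43 (log2, SE, adjusted p = 0.0781). With the mean ln value per cell limma called 4 members, mt-Nd1, mt-Co3, mt-Co1 and mt-Atp6, all negative (-2.27 to -1.14 in ln), and the median of the mt-encoded genes was -1.11, against 0.17 (log2) from summed UMIs.

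Without injury, optic nerve cells were compared with retina cells. limma called 3 of 91 members (3.3%), all mt-encoded and higher in optic nerve, beside 7.6% of all genes tested (5.02% higher and 2.58% lower). mt-Nd1 (4073 and 2241 CPM in optic nerve 2 and 4 against 1139 and 873 CPM in retina 5 and 6) differed by 1.59 ± 0.39 (log2, SE, adjusted p = 0.0331). mt-Nd3 (2396 and 919 against 313 and 429 CPM) differed by 1.99 ± 0.52 (log2, SE, adjusted p = 0.0419). mt-Co3 (14387 and 6228 against 2969 and 2942 CPM) differed by 1.68 ± 0.46 (log2, SE, adjusted p = 0.0474). In each the lower optic nerve library, 4, was still above both retina libraries. None of the 3 was called once T-like cells and those with oligodendrocyte or endothelial markers were left out, nor by edgeR on 8 libraries. Without these cells their log2 differences were 1.57 (mt-Nd1), 2.09 (mt-Nd3) and 1.72 (mt-Co3), at adjusted p of 0.0641, 0.0519 and 0.0774 in limma, while the calls over all genes went from 419 to 139. mt-Co3 and mt-Nd3 were also lower as a share of mt-encoded UMIs in both uninjured retina libraries than in the other 6 (1.01% and 1.57% against 1.59% to 3.34% for mt-Nd3), whereas the mt-Nd1 share was 3.69% and 3.20% there and 3.74% and 3.45% in injured optic nerve. The number called was 0 without uninjured retina 6, either injured retina pool or uninjured optic nerve 2, 1 (mt-Nd3) without uninjured optic nerve 4 or injured optic nerve 3, and 2 (mt-Nd1 and mt-Nd3) without injured optic nerve 1. Without uninjured retina 5 it was 3, of which mt-Nd1 was the one shared with the fit on all libraries and the other two were Ndufb7 and Ndufaf2.

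After injury, 1 of 91 members (1.1%), mt-Nd4l, differed between the tissues in limma, beside 1.63% of all genes tested (0.508% higher and 1.12% lower). It stood at 1012 and 931 CPM in optic nerve 1 and 3 and at 252 and 321 CPM in the retina pools, higher in optic nerve by 1.74 ± 0.34 (log2, SE, adjusted p = 0.0305). This comparison does not involve uninjured retina other than in the estimate of spread. The optic nerve and retina libraries also differed in the genes listed, with Atp5f1, Atp5mpl and Atp5s at 0 in all optic nerve libraries only. Whether a difference in annotation or counting had a part in the mt-Nd4l value was not tested. The call was lost without either injured pool or either injured optic nerve library. It shares libraries with the interaction above. The median log2 difference was 0.69 over the 13 mt-encoded genes and 0.38 over the nuclear members. Single libraries moved these medians, to 0.43 and 0.77 without injured optic nerve 1 and to 1.02 and 0.017 without injured optic nerve 3. With the mean ln value per cell the mt-encoded median turned to -0.36, and mt-Co1 (-0.74, adjusted p = 0.0193), mt-Nd1 (-0.93, adjusted p = 0.0422) and the nuclear gene Cox7a2l (-0.55, adjusted p = 0.039) were called by limma, all lower in optic nerve, while mt-Nd4l was not called.

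By complex, the median log2 change of the nuclear members in injured retina was -0.44 over 34 genes of complex I, -0.30 over 8 of complex III, -0.044 over 12 of complex IV and -0.064 over 16 of complex V. In injured optic nerve it was 0.11 over 35, 0.14 over 8, 0.36 over 12 and 0.35 over 14 genes in the same order. No nuclear gene of complex V was called in either tissue. Among the subunits chosen by CPM, the complex I subunits Ndufa13 and Ndufa2 stood at 204 ± 14.9 and 139 ± 23.8 CPM in uninjured retina (SD, n = 2), 177 ± 9.35 and 194 ± 33.5 in injured retina, 220.1 ± 39.2 and 201 ± 23.2 in uninjured and 269.8 ± 83.8 and 260.3 ± 92.6 in injured optic nerve. The 4 genes of complex II, succinate dehydrogenase, were not called in any comparison in which they were tested. Sdhb, its iron-sulfur subunit, stood at 117 ± 13.6, 102 ± 26.1, 103 ± 44.1 and 162 ± 69.6 CPM in the same order. The flavoprotein gene Sdha was at 56.7 ± 6.51, 66.7 ± 1.03, 95.6 ± 10.8 and 69.4 ± 9.28 CPM. The membrane anchors Sdhc and Sdhd ran from 12.6 to 76.0 CPM over the libraries and were too low for the retina test. Cycs, somatic cytochrome c, was within 54.6 to 82.0 CPM in all 8 libraries.

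In complex III, Uqcr11 and Uqcrq, small accessory subunits, stood at 253 ± 31.9 and 192 ± 12.1 CPM in uninjured and 135 ± 54.4 and 164 ± 46.4 CPM in injured retina, and Uqcr11 gave a change of -0.85 ± 0.35 (log2, SE, adjusted p = 0.101) that was not called. In complex IV, Cox8a and Cox7c stood at 724 ± 70.5 and 396 ± 82.6 CPM in uninjured retina, 665 ± 27.4 and 385 ± 40.7 in injured retina, 566 ± 129 and 395 ± 62.6 in uninjured and 843 ± 237 and 517 ± 206 in injured optic nerve. Neither was called in any comparison. Injured optic nerve 3 held the highest value of Cox8a (1011 CPM), Cox7c (662 CPM) and Cox6b1 (490.2 CPM) of all 8 libraries. In complex V, Atp5e, the epsilon subunit, had its highest value in the same library (709.6 CPM). Atp5l, a subunit of the membrane part, ran from 245 to 519.6 CPM, and was not called.

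Of the paired isoforms, the widely expressed form held most of the UMIs. The heart and muscle forms Cox8b and Cox7a1 had 0 UMIs in all libraries, and 0 to 19 per library, respectively, and Cox4i2, the hypoxia-related form of subunit 4, had 2 UMIs in uninjured retina 5, 3 in uninjured optic nerve 2 and 0 in the other 6 libraries. Ndufa4l2 had 1, 6 and 2 UMIs in uninjured retina 5, uninjured optic nerve 2 and injured optic nerve 3, and 0 elsewhere. Cox6b2, known from testis, had 16 UMIs in injured optic nerve 3 where Cox6b1 had 2284. Cox6a2, the form typical of heart and muscle, was less rare, and had 40 and 4 UMIs in the injured retina pools, 20 and 137 in injured optic nerve 1 and 3, 1 and 0 in uninjured retina and 2 and 0 in uninjured optic nerve. At 62.9 CPM in injured optic nerve 1 it was below Cox6a1 (141 CPM), and it had too few UMIs for the tests. Library totals differ widely, so its 0 in uninjured retina 6 and uninjured optic nerve 4, the smallest libraries, does not show absence. Itgad overlaps Cox6a2 on the other strand, and its part in these UMIs was not tested.

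The 3 genes of the c-ring of the ATP synthase, which encode the same mature protein, were measured separately. Atp5g1 stood at 200.3 ± 20.1 and 131 ± 34.8 CPM in uninjured and injured retina, Atp5g2 at 407 ± 98.4 and 549 ± 12.7, and Atp5g3 at 144 ± 56.4 and 121 ± 19.0. No change of these 3 was called in either tissue. Atp5f1, Atp5mpl and Atp5s were listed at 0 in all optic nerve libraries although present in retina (Atp5f1 with 259 UMIs in pool 1 and 2), so they entered no comparison with optic nerve and no statement is made on their level there.

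Most lists of other mitochondrial genes gave few calls. In retina, 0 of 22 mitochondrial ribosomal proteins, 0 of 7 citric acid cycle genes, 0 of 6 assembly factors and 0 of 2 regulators (Yy1 and Hif1a) passed edgeR's test, against 19.7% of all genes, with list medians of -0.19, -0.26, -0.080 and 1.05 (log2). Of the ATP synthase and related genes listed under other symbols, 0 of 8 passed, with a list median of -0.15. Among them Cyc1 gave -1.21 ± 0.43 (adjusted p = 0.0677 in edgeR). Of 11 carriers and pores 1 fell, the pyruvate carrier gene Mpc1 (-1.30 ± 0.32, adjusted p = 0.0183). Of 11 antioxidant and stress genes 3 rose and 1 fell, a larger share than the 19.7% of all genes. The fall was in the stress-response transcription factor gene Ddit3 (-1.01 ± 0.29, adjusted p = 0.0312), which was named after its value was seen. The rises were in the matrix chaperones Hspd1 (2.43 ± 0.35, adjusted p = 0.000873) and Hspe1 (2.07 ± 0.31, adjusted p = 0.00109) and in the cytosolic superoxide dismutase Sod1 (2.88 ± 0.61, adjusted p = 0.00905). The RNA-binding gene Slirp, 1 of 2 tested for mt gene expression, rose by 2.15 ± 0.68 (adjusted p = 0.047). The import gene Timm23, 1 of 10 import genes called, rose by 3.95 ± 0.88 (adjusted p = 0.0112), at 75.4 and 96.4 CPM in the injured pools and 0 to 8.24 CPM in the other 6 libraries. In optic nerve limma called 0 genes of these lists after injury.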

How the data were processed

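Single cells were profiled with a droplet 3′ assay, and the authors deposited 1 table of 1168 cells. Per the submitters' processing notes, bcl2fastq 2.17.1.14, Cell Ranger 1.3, Seurat 4.0.3 and build mm10 were used. The 209 retina cells were deposited as raw UMI counts. The 959 optic nerve cells were deposited as natural log values, ln of 1 plus 10000 times the UMI count over the cell's total. Undoing the log gave whole UMIs for 100% of 1374534 values above 0 (tolerance 0.01). In optic nerve, 17 entries that repeat a symbol (6791 UMIs) were counted once. Doublets were not called.

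UMIs were summed per library. For injured against uninjured retina, edgeR 4.0.16 was run (quasi-likelihood test, TMM, filterByExpr with a minimum count of 10) on 4 libraries and the first 27998 entries of the table. All other comparisons used limma 3.58.1 (trend) on log2(TMM-scaled CPM + 10) over 8 libraries, so fold changes of low genes are understated. P-values were adjusted by Benjamini-Hochberg over all genes tested, with a threshold of 0.05. CPM of single genes are UMIs per 1000000 UMIs of the library, with TMM factors, whereas marker sums use library totals alone. R 4.3.3 and Python 3.11.15 were used, and the tests were tested on simulated data with a set spread. Of genes changed 4-fold there, 78 of 171 were recovered for injury in retina (edgeR). In limma 81 of 200 were recovered for injury in optic nerve and 2 of 200 for the interaction. A gene not called is therefore not shown to be unchanged. Gene coordinates are from GENCODE M21 (GRCm38). Alternatives were DESeq2 1.42.0, edgeR on 8 libraries, other scalings, filters and pseudocounts, mean ln values, leaving out cell classes and leaving out each library. The members and lists were chosen with earlier results of these data known. Named were all mt-encoded genes, complex II, Cycs, the 3 nuclear members of each other complex with the highest mean CPM, isoform pairs, all called members, and up to 3 genes per companion list by p.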

Additional observations from a re-analysis of the deposited data

Results flagged for a closer look

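mt-Nd4l, an mt-encoded complex I subunit, was called by the test of whether the injury difference differs between tissues. It was the only call, 1.1% of the members beside 1.27% of all genes tested. The contrast includes uninjured retina, so the difference in annotation or merging there and the biological contrast cannot be told apart. mt-Nd4l also shares bases with mt-Nd4. The injury difference in optic nerve minus that in retina was 2.31 ± 0.48 (log2, SE, adjusted p = 0.0437 in limma), with 2 libraries per group. Both injured retina pools were below both uninjured retina libraries, and both injured optic nerve libraries were above both uninjured ones. The call held in 5 of 18 alternatives, with adjusted p from 0.0141 to 0.346 over them.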

How the results depend on the processing

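No member called on summed UMIs over all libraries changed direction in that comparison under the alternatives run, but mt-Co1, not called between injured tissues (0.35), was called lower in optic nerve with mean ln values (-0.74), and mt-Atp6 in the interaction (0.17) was called negative (-1.14). The optic nerve ratio difference, smaller than its spread, changed sign without injured optic nerve 3. The number of members called in injured retina was 11, and became 1 with edgeR on 8 libraries, 6 with DESeq2, 2 with limma on mean ln values, 4 with no low-count filter, and 3 to 10 when 1 library was left out. Over all genes the calls went from 653 to 255 with edgeR on 8 libraries, 351 with DESeq2 and 964 with mean ln values. For injury in optic nerve it was 0, 5 with mean ln values, and 0 to 0 when 1 library was left out. For the interaction it was 1, and became 2 with DESeq2, 4 with mean ln values, all mt-encoded and negative, 2 with library totals, and 0 with edgeR on 8 libraries, library sizes without mt-encoded UMIs, no filter, a pseudocount of 1, or the 3 cell classes left out. Leaving out 1 library gave 0 to 1. Between uninjured tissues it was 3, and became 6 with mean ln values, 1 with a pseudocount of 1, and 0 with edgeR on 8 libraries, no filter or the classes left out. The 6 were mt-Co3, mt-Nd1 and mt-Atp6, higher in optic nerve, and the nuclear genes Ndufs8, Ndufa3 and Atp5g2, lower there. With the pseudocount of 1 the call was nuclear Cox7a2l, higher in optic nerve, and none of the 3 mt-encoded genes. Leaving out 1 library gave 0 to 3. Between injured tissues it was 1, and became 3 with mean ln values, all lower in optic nerve and without mt-Nd4l, 0 with no filter or a pseudocount of 1, and 0 to 1 when 1 library was left out. The cause of these shifts was not tested. The log2 ratio difference in optic nerve, -0.46, became -2.04 as a mean over cells, -0.81 with the classes left out and -1.10 to 0.19 when 1 library was left out. That in retina, 0.011, became 0.082 with the classes left out and -0.055 to 0.077 when 1 library was left out.

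A fit with the replicate number as a block was possible between injured tissues, where it left 0 members called (mt-Nd4l adjusted p = 0.066 in limma). Deviations of the same-numbered libraries correlated at -0.145 over 2707 genes, and the crossed pairing, chosen after seeing the data, also left 0. Uninjured retina 6 held 56838 UMIs in 12 cells, which limits the depth of each retina comparison it enters.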
